A study of Mus musculus with 2 samples.

Results

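The glucocorticoid receptor gene Nr3c1, the mineralocorticoid receptor gene Nr3c2 and 8 genes known to respond to glucocorticoids (Fkbp5, Tsc22d3, Sgk1, Zbtb16, Klf9, Dusp1, Cebpd and Mt1) were followed in mouse glomeruli with experimental lupus nephritis. The members were all gene probes whose RefSeq accession belongs to 1 of these 10 genes, which gave 11 of the 39429 gene probes on the array and 10 of the 20659 genes those probes name. All 11 probes were well above background on both arrays and none of their spots was marked as an outlier. Nr3c1 had 2 probes and the other 9 genes had 1 each. The genes were proposed with earlier results of these arrays known, so their values are a description of these arrays and support nothing by themselves.

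The study compared glomerular RNA of wild type (WT) mice and of mice with Sirpa deleted in podocytes (Sirpa-/-), the epithelial cells of the glomerular filter, with 1 array per group. All mice were male, aged 8 months, and had been injected once with 0.5 ml of pristane, an oil that induces lupus-like disease, 4 months before; no uninjected mice were analysed here. Glomeruli were collected with magnetic beads after the cortex had been digested for 15 min at 37 °C. Although the series text mentions isolated podocytes, labels and extraction protocol both describe glomeruli. For the promoter that drove the deletion, the number of animals behind each array and the hour of collection, the labels give nothing. With 1 array per group no difference has a replicate check, and every value below compares these 2 arrays.

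Of the gene probes, 85.3% were well above background in WT and 86.7% in the other sample. Podocyte markers were bright on both arrays, with processed signals from 1181 to 125700 (WT) and from 1104 to 122000 (Sirpa-/-). The only Sirpa probe read 11620 (WT) and 17320, so the array labelled Sirpa-/- was 1.56-fold higher, which goes against that label. The probe has no stated place relative to the deleted part, and cells other than podocytes keep the gene. The part of either in the higher reading was not tested. Below, "higher" and "lower" therefore mean the array labelled Sirpa-/- set against WT. Whether the labels were exchanged was not tested; if they were, every direction given here would turn.

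Glucocorticoids enter cells freely and bind the glucocorticoid receptor, which is held in the cytoplasm by heat shock protein complexes, moves to the nucleus and activates genes near paired, inverted binding motifs. Podocytes express this receptor, and glucocorticoids are a standard treatment of glomerular disease, lupus nephritis included. The mineralocorticoid receptor binds aldosterone and glucocorticoids, and acts above all in the distal nephron. Among the targets, Fkbp5 encodes a co-chaperone that lowers the receptor's hormone affinity in a feedback loop, and Tsc22d3 encodes GILZ, a leucine zipper protein that restrains NF-kB and AP-1. Dusp1 encodes a phosphatase that inactivates MAP kinases, Sgk1 a kinase that raises sodium transport, and Mt1 a metal-binding protein. Zbtb16, Klf9 and Cebpd encode transcription factors.

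Because the receptor acts through DNA motifs, the 250 bases before the annotated starts of the targets are shown for 3 genes: Fkbp5, which differed most between the arrays, and Sgk1 and Dusp1, which hardly differed. The RefSeq promoter table (GRCm38.p6) held 7 of the 10 genes, in 14 windows, and did not list Nr3c1, Zbtb16 and Cebpd. Sequences run 5′ to 3′ along the gene. Capitals mark the full glucocorticoid response element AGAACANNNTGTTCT, a single arm of it (TGTTCT), the cAMP response element TGACGTCA and the GC box GGGCGG, each searched on both strands, and the TATA box TATAAA, searched on the gene's strand. A full element also counts as 2 arms.
Fkbp5 (chr17:28486150-28486399, minus strand): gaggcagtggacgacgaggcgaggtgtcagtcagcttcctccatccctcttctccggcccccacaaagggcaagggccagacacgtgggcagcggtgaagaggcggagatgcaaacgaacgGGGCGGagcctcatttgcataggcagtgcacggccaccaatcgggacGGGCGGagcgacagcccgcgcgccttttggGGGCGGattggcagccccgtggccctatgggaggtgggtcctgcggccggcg
Sgk1 (chr10:21993640-21993889, plus strand): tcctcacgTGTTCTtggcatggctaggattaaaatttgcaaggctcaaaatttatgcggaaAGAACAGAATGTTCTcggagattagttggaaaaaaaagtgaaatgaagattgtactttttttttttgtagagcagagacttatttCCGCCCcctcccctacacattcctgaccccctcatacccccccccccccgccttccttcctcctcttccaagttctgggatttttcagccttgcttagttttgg
Dusp1 (chr17:26508473-26508722, minus strand): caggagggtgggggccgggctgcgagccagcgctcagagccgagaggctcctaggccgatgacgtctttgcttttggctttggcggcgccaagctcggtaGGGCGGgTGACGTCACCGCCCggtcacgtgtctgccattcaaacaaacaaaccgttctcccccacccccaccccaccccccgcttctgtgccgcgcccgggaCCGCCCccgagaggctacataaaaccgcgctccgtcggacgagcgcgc

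The full element was found in 1 of the 14 windows, the Sgk1 window printed here, as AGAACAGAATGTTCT at chr10:21993701-21993715. It begins 189 bases before that start and 965 bases before the last of the 6 Sgk1 starts in the table. Of all 32851 promoter windows of this length only 3 (0.00913%) held this exact element. The other two belong to Acnat2, with a log2 difference of 0.31 at signals of 74.76 and 88.57, and to Gm35041, which no probe named by accession reads. A single arm occurs in 16.1% of windows and was found in 3 Sgk1 windows and 1 of the 3 Tsc22d3 windows, where it begins 185 bases before the start. The Fkbp5 window held no arm and 3 GC boxes, a motif present in 32.7% of windows. The Dusp1 window held 3 GC boxes and a cAMP response element that begins 143 bases before the start, an element present in 1.55% of windows. These are matches of letters in short windows, and sites outside them were not searched.

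**Figure D1:**
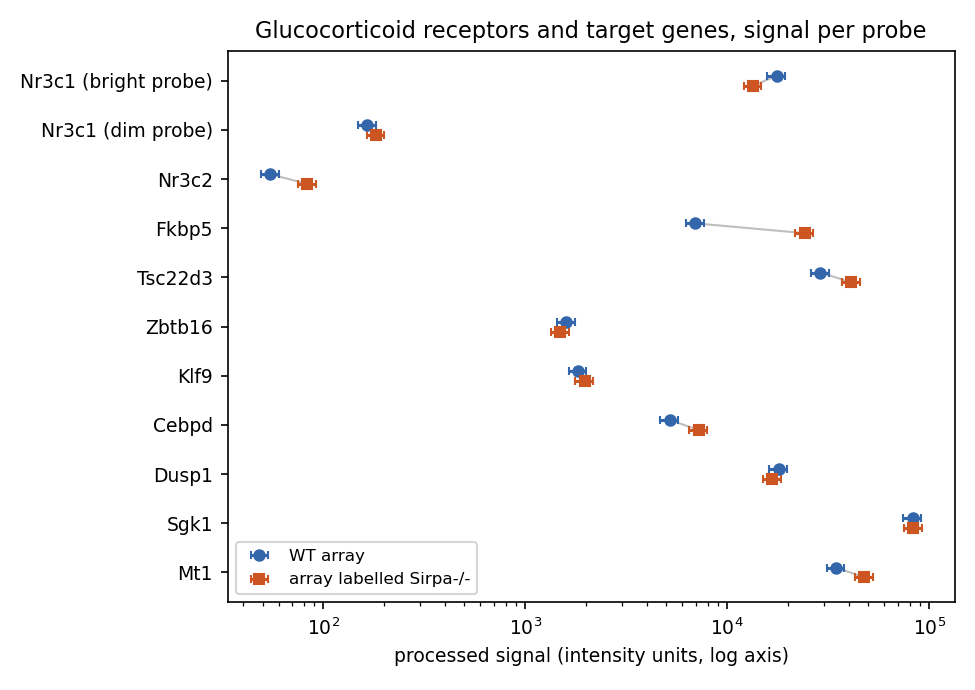
Processed signal of each of the 11 probes of the WT array (circles) and the array labelled Sirpa-/- (squares), on a log axis in intensity units; bars are the scanner software's error estimate and grey lines join the 2 arrays. Fkbp5 has the widest gap, from 6957 to 24140, while the Sgk1, Dusp1, Klf9 and Zbtb16 symbols overlap within their bars.

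Among the 10 genes, Fkbp5 differed most, with a 3.62-fold higher signal in the array labelled Sirpa-/-; Nr3c2, Tsc22d3, Cebpd and Mt1 were between 1.44-fold and 1.59-fold higher, and Sgk1, Dusp1, Klf9 and Zbtb16 differed by less than 0.2 on the log2 scale. Nr3c1 was 1.25-fold lower on its brighter probe. At least 2-fold higher was 1 gene, Fkbp5, against 1.57% of the 18240 named genes measured on both arrays, and 0 were at least 2-fold lower, against 1.67%. With background correction by normexp those shares over all genes were 0.62% and 0.433%, so that 58.9% of the 2-fold calls were higher in place of 48.5%. At 1.5-fold, 2 of the 10 genes were higher (Fkbp5 and Nr3c2), against 4.35% of all genes, and 0 lower, against 5.27%. Above 0 were 7 of 10, against 50.3%. The median log2 difference was 0.35 over the 10 genes and 0.17 without Fkbp5, against 0.002 over all genes.

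The receptors came first. The probe of Nr3c1 with the higher signal gave 17580 ± 1760 in WT and 13420 ± 1340 in the other sample, where ± is the software's error estimate for the spot. After each array was divided by its 75th percentile (1158 and 1109), its log2 difference was -0.33 with a software error of 0.20. The other Nr3c1 probe gave 165.2 ± 16.6 and 182.4 ± 18.3, a log2 difference of 0.21 with the same error of 0.20. The probes of this gene thus lay on opposite sides of 0, and their mean was -0.06. In glomerular RNA, fewer cells of a type and less RNA per cell cannot be told apart, for this gene or any below.

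Nr3c2 had signals of 54.6 ± 5.67 in WT and 83.42 ± 8.47 in the array labelled Sirpa-/-, 1.59-fold higher, with a log2 difference of 0.67 and a software error of 0.21. Both signals were dim, though well above the lowest signals called above background (6.72 and 6.21). With normexp, which compresses dim signals, the difference was 0.40. Of the 11 distal nephron markers (loop of Henle to collecting duct), 9 lay above 0, against 50.3% of all genes, with a median of 0.91. The sum of their scaled signals was 2.62 (WT) and 4.62, with 0 of the 11 at background. They were uneven: Slc12a3 (2.53), Calb1 (1.39), Kcnj1 (1.38) and Trpm6 (1.04) were highest. The brightest, Umod (0.97), read 1552 (WT) and 2907. Aqp2 (0.15) and Aqp3 (0.05) lay near 0, and Hsd11b2 (-0.10) and Slc12a1 (-0.15) below it. The median of 0.91 was 0.36 with normexp and 0.58 over the 6 markers with a signal of at least 100 on both arrays. The part of these markers' cells in the Nr3c2 difference was not tested.

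Fkbp5 gave 6957 ± 696 in WT and 24140 ± 2410 in the array labelled Sirpa-/-. Its scaled signal was 6.01 times the 75th percentile on the first and 21.8 times on the second, which is 3.62-fold higher, or 1.86 on the log2 scale with a software error of 0.20. Of all measured genes only 0.587% had a larger difference in either direction, and Fkbp5 ranked 61 from the highest, or 61 from the lowest if the labels were exchanged. Dim genes scatter more, and among the 6985 genes brighter than the 75th percentile it ranked 9 in the same direction, with 27 of them (0.387%) at least 2-fold higher and 33 lower by that much. The value stayed between 1.79 and 1.92 under 10 other settings.

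The difference at Fkbp5 was not shared by its surroundings on the chromosome or on the slide. The 3 nearest measured genes on each side in the RefSeq order of chromosome 17 (Rpl10a, Tead3, Tulp1, Armc12, Clpsl2 and Clps) had differences from -0.20 to 0.22. The 100 measured gene spots within 5 rows and 5 columns of its spot had a median difference of -0.12. Fkbp5 was read by 1 spot of 1 probe on each array, so its value has no second probe beside it. A fault of that spot or probe was not tested. In the 860 genes with 2 probes brighter than the 75th percentile, the differences of the 2 probes lay 0.09 apart in the median and at most 0.28 apart in 90% of genes. Of the 6985 genes that bright, only 27 were at least 2-fold higher and 33 lower by that much. The gaps therefore come mostly from genes that differed little, and they do not check the Fkbp5 probe.

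**Figure D2:**
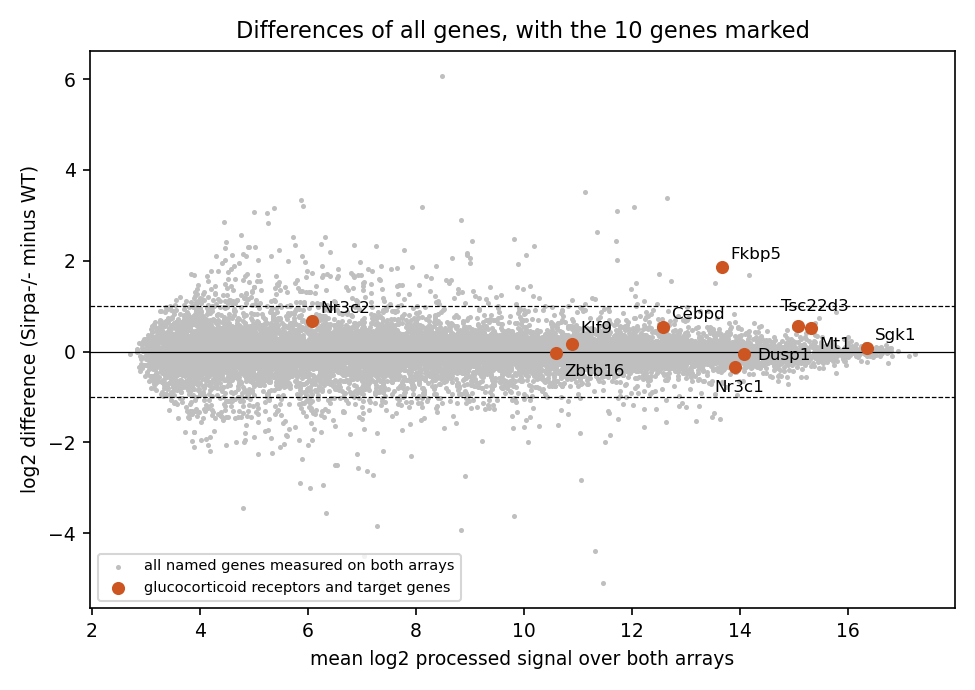
Log2 difference (array labelled Sirpa-/- minus WT array) against the mean log2 processed signal for the 18240 named genes measured on both arrays (grey), with the 10 genes in orange; dashed lines mark 2-fold. Fkbp5, at 1.86, ranks 9 from the highest among the 6985 genes brighter than the 75th percentile, and the other 9 of the 10 genes lie within the dashed lines.

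Tsc22d3 gave 28910 ± 2890 in WT and 41090 ± 4110 in the other sample, 1.48-fold higher, with a log2 difference of 0.57 and a software error of 0.20. Its paralogues, which share the TSC22 domain, differed less: 0.02 for Tsc22d1, 0.02 for Tsc22d2 and 0.26 for Tsc22d4.

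Cebpd, a factor of the acute-phase response, gave 5178 ± 518 and 7216 ± 722, 1.46-fold higher, with a log2 difference of 0.54 and a software error of 0.20. The unscaled signals lay further apart than their software errors for Fkbp5, Tsc22d3, Cebpd, Mt1, Nr3c2 and the brighter Nr3c1 probe, and their bars overlapped for the other probes. The software error of the log2 difference was 0.20 for every probe but Nr3c2, where it was 0.21. Whether bars overlap thus follows from the size of the difference and is no separate check of a spot. The other C/EBP genes ranged from -0.23 for Cebpe (0.09 with normexp) to 0.23 for Cebpb, with 0.04 for Cebpa, 0.04 for Cebpg and 0.15 for Cebpz. Zbtb16 (PLZF) gave 1599 ± 160 and 1492 ± 149, a log2 difference of -0.04. With spike-in scaling it turned to 0.03, where the median over all genes was 0.065.

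Klf9 gave 1823 ± 182 in WT and 1969 ± 197 in the array labelled Sirpa-/-, a log2 difference of 0.17 that lies within its software error of 0.20. Of all genes 44.1% differed by more. Among its paralogues, Klf15, itself a well known glucocorticoid target, was 1.99-fold higher (log2 difference 0.99), and Klf10 (0.78) and Klf11 (0.62) were higher too, while Klf3 (-0.69) and Klf7 (-0.45) were lower. The 11 KLF paralogues had a median of 0.12.

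Dusp1 gave 17980 ± 1800 and 16720 ± 1670, a log2 difference of -0.04 that lies within its software error of 0.20. The difference became 0.05 with normexp and 0.02 with spike-in scaling. Over all genes the median also rose, from 0.002 to 0.074 with normexp and to 0.065 with spike-in scaling. At this size no direction can be given. None of its 9 dual-specificity phosphatase paralogues reached 2-fold, against 3.23% of all genes in either direction, and they ranged from -0.45 for Dusp8 to 0.36 for Dusp14. Dusp1 is also an immediate early gene that tissue digestion can induce. The 18 measured immediate early genes had a median of 0.11, with 12 above 0, against 50.3% of all genes. They ranged from -0.51 for Nr4a1 and -0.49 for Fos to 0.79 for the dim Egr2.

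Sgk1 gave 82720 ± 8270 in WT and 83430 ± 8340 in the other sample, a log2 difference of 0.07. This is the gene whose printed window holds the full response element, and 71.9% of all genes differed by more. Its relatives Sgk2 (0.22) and Sgk3 (-0.20, and 0.41 on its other probe) did not reach 2-fold either. The spots of Sgk1 were not saturated.

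Mt1 gave 34530 ± 3450 in WT and 47620 ± 4760 in the array labelled Sirpa-/-, 1.44-fold higher, with a log2 difference of 0.53 and a software error of 0.20. Its neighbour Mt2, which metals and glucocorticoids also induce, was higher by 0.40, from 15770 to 19960, while Mt3 (0.17) and Mt4 (0.01) of the same cluster differed less. Metallothionein genes are close copies, so their probes may read more than 1 of them. Among genes of zinc handling, the zinc-sensing factor Mtf1 gave -0.11, though its other probes reached 0.77, and the zinc exporter Slc30a1 gave -0.14. The zinc importers Slc39a10 (-0.55) and Slc39a14 (-0.32) were lower. On the other side of Mt1, Slc12a3, the thiazide-sensitive cotransporter, was 2.53 higher on the log2 scale at dim signals of 22.58 and 124.9 (1.22 with normexp). Of the 60 nearest measured neighbours of the 10 genes it was the only 1 to reach 2-fold, against 3.23% of all genes in either direction.

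**Figure D3:**
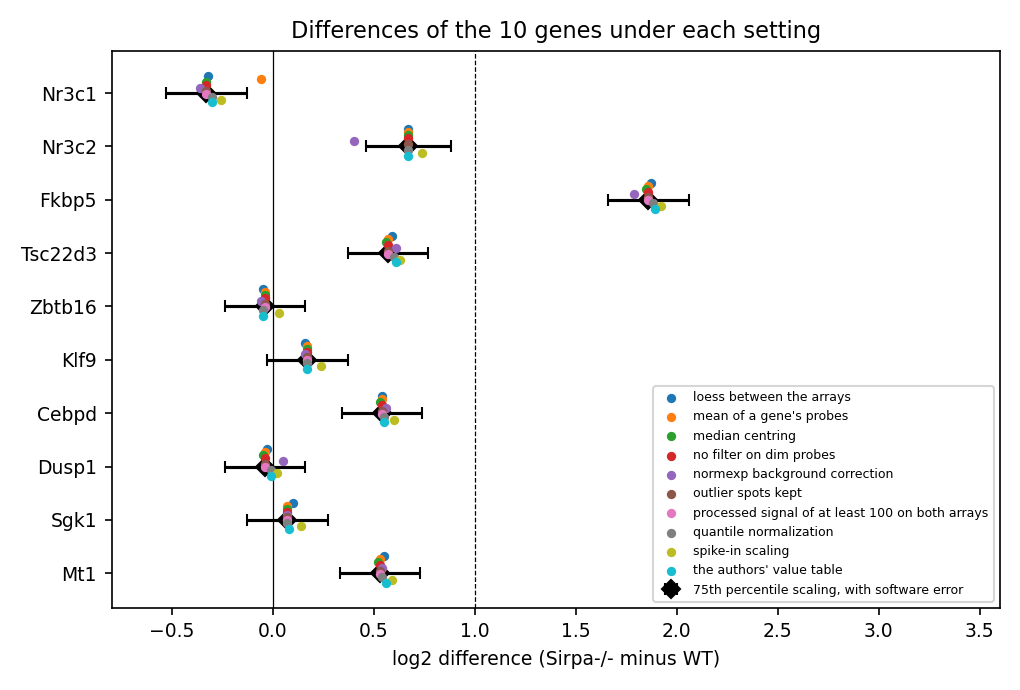
Log2 difference (array labelled Sirpa-/- minus WT array) of each of the 10 genes with scaling to the 75th percentile (black diamonds; bars are the software error) and under 10 other settings (coloured points; 9 for Nr3c2, which is below a signal of 100); the dashed line marks 2-fold. Fkbp5 stays beyond 2-fold in all of them, the dim Nr3c2 falls to 0.40 with normexp, and Dusp1 and Zbtb16 cross 0. The median over all genes was 0.074 with normexp and 0.065 with spike-in scaling.

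The machinery around the receptors is given by its lists of chaperones and coregulators. Of the 13 chaperones and co-chaperones of the receptor complex, 0 reached 2-fold and the median was -0.06, with Hsp90ab1 at -0.16, Hsp90aa1 at -0.11 and Hspa4 lowest at -0.54 (from -0.76 to -0.02 on its other probes). Fkbp4, the co-chaperone that competes with the Fkbp5 product for the receptor complex, gave 1298 (WT) and 1243, a log2 difference of 0.00. The 14 coregulators had a median of -0.06 and ranged from -0.24 for Gmeb1 to 0.24 for Hdac2 on the brightest probes, while a dimmer probe of Med1 (0.05) gave -1.0. The 2-fold counts of both lists were 0, close to the background of 1.57% higher and 1.67% lower over all genes.

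Of the 8 genes of steroid metabolism and access 0 reached 2-fold, against 3.23% of all genes. Hsd11b1, the enzyme that regenerates active glucocorticoid, gave 133.5 and 151.0, a log2 difference of 0.24. Hsd11b2, which inactivates it in aldosterone target cells, gave dim signals of 18.2 and 16.24 (-0.10; 0.15 with normexp). The steroid exporter genes Abcb1a (-0.20, 0.11 with normexp) and Abcb1b (-0.36) were lower, and Akr1c18, a steroid reductase, was highest of the 8 genes at 0.55.

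Other genes known to be induced by glucocorticoids were mostly higher in the array labelled Sirpa-/-. Of 32 such genes 31 were measured, 26 of them lay above 0, and the median was 0.30, against 50.3% above 0 and a median of 0.002 over all genes. At least 2-fold higher were 2, against 1.57% of all genes. These were Fam107a (1.08, and 0.54 on its other probe) and Il1r2, the decoy receptor of interleukin 1 (1.02 at dim signals of 24.16 and 46.92, and 0.44 with normexp). Lower by almost that much was Ptgds, a prostaglandin D2 synthase, at -0.98. Klf15 (0.99), Angptl4 (0.96), which inhibits lipoprotein lipase, and the sulfotransferase Sult1a1 (0.90, and 1.06 on its other probe) came next, and Pdk4 gave 0.70, Txnip 0.57 and Sesn1 0.57. The clock gene Per1 (0.01), the NF-kB inhibitor Nfkbia (-0.08) and annexin A1 (Anxa1, 0.05) lay near 0. Under the 10 other settings the median of this list ran from 0.24 to 0.37, and its 2-fold higher count from 0 to 4. The count of 0 came with normexp, where the share over all genes was 0.62%. The count of 4 came with spike-in scaling, where that share was 1.82%. This list was chosen from textbook roles with earlier results of these arrays known, and several of its genes also answer to fasting or to other signals.

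Of 15 genes known to respond to the mineralocorticoid receptor, 2 were at least 2-fold higher, Slc12a3 (2.53) and the potassium channel Kcnj1 (1.38), 0 were at least 2-fold lower, and the median was 0.38. Over all genes 1.57% were higher and 1.67% lower by that much. The kinase gene Stk39 was lowest at -0.99, and was past 2-fold lower with median centring and with normexp (-1.02). The sodium channel subunits gave 0.72 for Scnn1a, 0.91 for Scnn1b and 0.38 for Scnn1g, the last 2 at dim signals below 35. Slc12a3, Kcnj1 and Scnn1b are also markers of the distal segments whose summed signal was higher on the same array. The median was 0.27 with normexp and 0.21 over the 11 genes with a signal of at least 100 on both arrays.

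**Figure D4:**
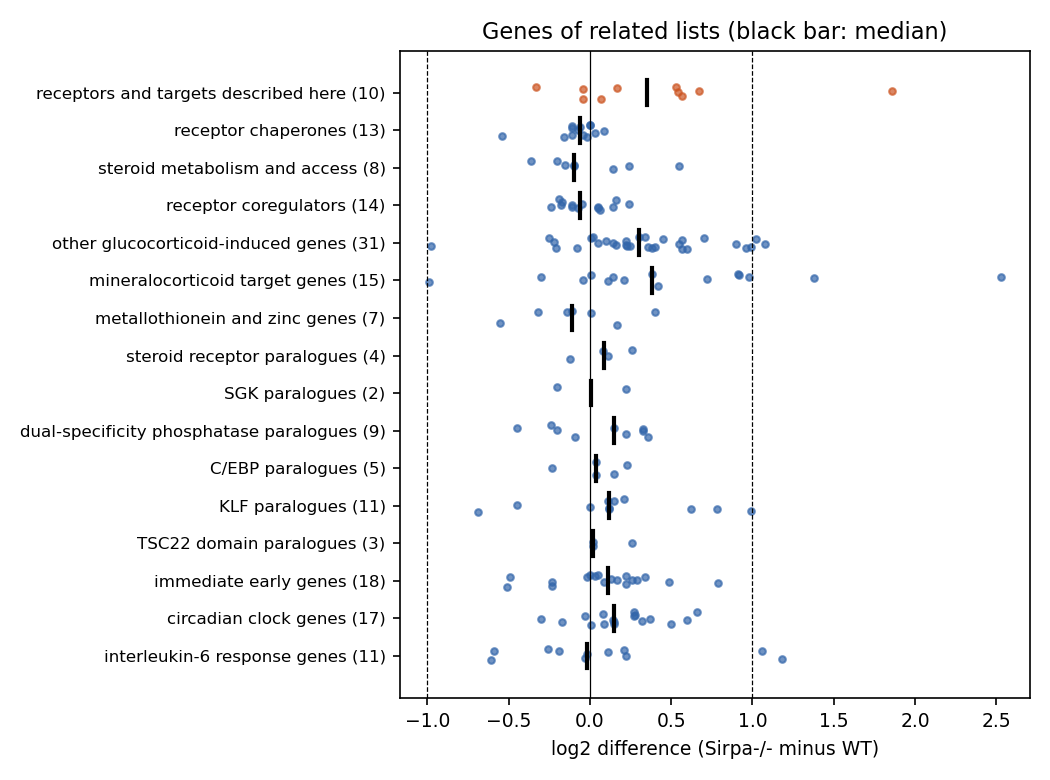
Log2 difference (array labelled Sirpa-/- minus WT array) of every measured gene in the 10-gene set (orange) and in each related list (blue, number measured in brackets); black bars are medians, dashed lines mark 2-fold, and vertical scatter within a list only separates points. Medians of 0.30 and 0.38 for the glucocorticoid-induced and mineralocorticoid target lists stand beside -0.06 for chaperones and for coregulators.

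Markers of other cells moved between the arrays as well. Over all genes 50.3% lay above 0 and 1.57% were at least 2-fold higher. All 6 B cell markers lay above 0, with a median of 1.33 and summed scaled signals of 0.836 and 3.23. That median was 0.93 with normexp and 1.87 over the 3 markers with a signal of at least 100 on both arrays. The brightest, Cd22, read 536.2 (WT) and 2562, and Cd79a was dim at 16.12 and 22.15. Of the erythroid markers 4 of 5 were at least 2-fold higher, with sums of 15.6 and 47.9. All 8 proximal tubule markers lay below 0, with a median of -0.38 and sums of 8.41 and 5.85. All 6 T cell markers lay above 0 with a median of 0.56 (0.30 over the 3 with a signal of at least 100 on both arrays) and sums of 1.35 and 1.62. Of the neutrophil markers 3 of 4 lay above 0 with a median of 0.51 and sums of 7.18 and 9.97. Of the macrophage markers 4 of 5 lay below 0 with a median of -0.31, though the sums were 10.7 and 11.5. The exception was the brightest of them, Mrc1 (0.36), which read 7203 (WT) and 8827. Podocyte markers had a median of 0.12, and the sum was 330 (WT) and 370. Endothelial and mesangial markers had medians of -0.09 and -0.11. The part of these cells in the differences of Fkbp5, Tsc22d3, Cebpd and Mt1 was not tested.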

How the data were processed

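Per the file headers, the authors' scanner files hold spot intensity from Agilent Feature Extraction 11.0.1.1 on a one-colour array designed on mm9; the submitters' processing notes name version 9.1. The deposited intensity used here is the processed signal: background was subtracted and spatial trends removed by that software, without any step between arrays. The deposited flags and control codes are other values set by that software. The authors' value table gives deposited log2 values; no label or header used here states how they were made. Its columns share their quantiles, and it served as an alternative.

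Here log2 was taken, spots of a probe were averaged without outlier spots, and each array's 75th percentile over gene probes was subtracted. A probe counted as measured when over 50% of its spots passed the software's above-background flag on each array. Names came from RefSeq accessions (27234 of 39429, 69.1%) in a GRCm38.p6 gene table, used for names and gene order only. A gene took its brightest probe. The rule for the text named all 10 genes with all probes, Sirpa, up to 4 genes per related list with the largest differences, and a few fixed genes and paralogues; further genes of these lists were named after their values were seen. The likeness of patterns across samples cannot be measured with 2 arrays. Members and lists were chosen with earlier results of these data known. With 1 array per group no test was run, and 2-fold was the fixed size for a call.

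Technical spread was read from 358 probes spotted 10 times: the SD of single-spot log2 differences had a median of 0.07. The number of arrays limits the precision. Alternatives used limma 3.58.1 in R 4.3.3 for normexp (offset 50, on median spot and local background intensity, since mean spot intensity is not among the columns used here) and statsmodels 0.14.6 for loess; tables and figures used Python 3.11.15, pandas 2.3.3 and matplotlib 3.10.9. The scaling steps were tested on simulated data.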

Additional observations from a re-analysis of the deposited data

How the results depend on the processing

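The count of 1 gene at least 2-fold higher and 0 lower held under 10 other settings (quantile, median, loess and spike-in scaling, normexp, the authors' table, all probes kept, a signal minimum of 100, probe means per gene, outlier spots kept). With a 1.5-fold threshold 2 genes were higher. The median of 0.35 was 0.28 with normexp, 0.17 over the 9 genes with a signal of at least 100 on both arrays, which leaves out Nr3c2, and 0.17 without Fkbp5, an alternative chosen after seeing the data. Of 99 values of single genes under these settings, 95 moved by less than the technical SD of 0.07 and 4 by more: Fkbp5 (1.79), Nr3c2 (0.40) and Dusp1 (0.05) with normexp, and Nr3c1 (-0.06) with the mean of its probes. For 162 genes, those measured in the related lists and Sirpa, 85 of 1595 values moved by more, 60 of them with normexp, and 0 genes past 2-fold changed sign. Of 150 medians of the 15 related lists 15 moved by more. Over all genes the median was 0.002 in the main setting, 0.074 with normexp and 0.065 with spike-in scaling, and the shifts counted here include that offset. The cause of these shifts was not tested. Signal over background limits Nr3c2, Il1r2, Slc12a3 and Hsd11b2. No replicate could be left out and no paired analysis was possible because each group has 1 array.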

Other observations

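Genes of the circadian clock, a system that shares Per1 and Klf9 with the glucocorticoid response, were slightly higher on the array labelled Sirpa-/-. Of 17 measured, 14 lay above 0, against 50.3% of all genes, with a median of 0.15, and 0 reached 2-fold, against 3.23%. Ciart was highest at 0.66, followed by Per2 at 0.60 and Cry1 at 0.50, and Nfil3 was lowest at -0.30, while Dbp (0.09) and Arntl (-0.03) lay near 0. Hours of collection are absent from the labels, so time of day and group cannot be told apart.

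Interleukin 6 signals through STAT3 and induces Cebpd, so its response genes were listed too. Of 11 measured, Lrg1 (1.18, from 843.4 to 1836) and Socs3 (1.06, from 3992 to 7963) were at least 2-fold higher, against 1.57% of all genes. The median of the list was -0.02, and 0.16 over the 8 genes with a signal of at least 100 on both arrays. With normexp the list median was 0.18, against 0.074 over all genes. Il6 itself was dim, at 17.73 and 11.12 (-0.61, and 0.11 with normexp), the receptor gene Il6ra gave -0.59, and Lcn2, another acute-phase gene, gave 0.22.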
